A study of Mus musculus with 18 samples.

Results

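The transcription factors and cofactors Six4, Eya1, Eya4, Sox6, Prox1, Tead1, Tbx15 and Vgll2, known for their part in giving muscle fibers a slow or a fast character, were followed in pools of hand-picked mouse myofibers from 3 muscles, with nuclei and cytoplasm measured apart. The genes were chosen with earlier results of these data known, and their probes by gene name alone. Every non-control probe carrying 1 of these 8 names was taken. This gave 10 probes of the 55681 probe names on the array and 8 of its 35527 named genes and regions. Tead1 had 3 probes and each other gene had 1. The study asked which RNAs differ between fiber types and between the compartments of a fiber.

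The fibers came from wild-type female CD1 mice, 3 months of age, and all 6 groups shared this strain, sex, age and state, with no treatment. The extensor digitorum longus (EDL) and the tibialis anterior (TA) are fast muscles of the lower leg, and the soleus is a slow one. Fibers were freed with collagenase, picked by hand in pools of 5 to 10, and lysed in a Triton buffer. The pelleted nuclei and the remaining cytoplasm were labelled with a low input kit and hybridised to separate 1-colour Agilent arrays, 3 per muscle and compartment. The EDL and soleus arrays of 1 replicate number came from the same 2 mice. Of the TA cytoplasm pools, replicates 1 and 2 had a mouse in common, which also gave EDL and soleus replicate 2, and each held a second mouse that alone gave the TA nuclei of its number. TA cytoplasm replicate 3 and TA nuclei replicate 3 came from different single mice. The mouse of TA nuclei replicate 3 was also 1 of the 2 mice of EDL and soleus replicate 1. Each array holds RNA of many fibers, so fewer fibers of a type and less RNA per fiber cannot be told apart. Because the arrays came from pools that shared mice, p-values measure the spread between these pools. The labels name different mice for the 3 nuclear arrays of a muscle, but whether each array had its own isolation and amplification is not given in the sources used here, so the nuclear spread may be technical.

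Muscle fibers set their type through layered transcriptional programs. Six4 and its relatives bind DNA and work with Eya coactivators to turn on fast-fiber genes. Sox6 silences slow-fiber genes in fast fibers, and Tbx15 is a T-box factor found in fast glycolytic fibers. Prox1 is a homeodomain factor of slow fibers that is also the master factor of lymphatic endothelium. Tead1 binds the MCAT element of many muscle genes, and Vgll2 is a muscle cofactor that binds Tead proteins.

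The 10 probes are shown first because what each can measure depends on its sequence. Each is 60 bases long and is placed by the array's own annotation on mouse build mm9. No annotation of that build was used here, so exon and UTR are not given. Bases 16 to 45 of each probe are printed below, except for Eya1, whose bases 31 to 60 are given in capitals because they lie wholly within a GT repeat.
Six4 (A_55_P2041095, chr12:74201246-74201305, minus strand): tctctgtatgtacccttgttattctgcatg
Eya1 (A_55_P2423586, chr1:14159982-14160041, minus strand): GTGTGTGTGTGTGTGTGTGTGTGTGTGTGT
Eya4 (A_55_P2041529, chr10:22824002-22824061, minus strand): aatgctatggtggcaaaatatggttggaat
Sox6 (A_52_P475356, chr7:122615418-122615477, minus strand): acaattctgaattaccctatacaagcctct
Prox1 (A_55_P2048751, chr1:191945785-191945844, minus strand): gctggatttttgtgtacgggtgcagtaaac
Tead1 (A_55_P2011390, chr7:120042204-120042263, plus strand): atgtgcacacacacactctccattatcgaa
Tead1 (A_55_P2159885, chr7:120043445-120043504, plus strand): gcatctttccataagcctcagtggcacttt
Tead1 (A_51_P214423, chr7:120049844-120049903, plus strand): gctaaacctcccggcagtacagtattctcg
Tbx15 (A_52_P232802, chr3:99157901-99157960, plus strand): caagctaaaatttttaaatggtgtggagac
Vgll2 (A_55_P2042456, chr10:51748095-51748154, plus strand): gaatggtgatgtggtcagacataatacaca

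The Eya1 probe stands apart. Its 2-base repeat runs for 34 bases, and it shares a stretch of at least 20 bases with 51 other probes, of 51 other genes. A 2-base repeat of at least 20 bases occurs in 88 of the 55681 probes. The other 9 probes share no such stretch with any probe. Of these, the Tead1 probe A_55_P2011390 holds an 11-base CA repeat. The 3 Tead1 probes lie in 1 transcript, with starts at bases 1846, 3087 and 9486, and distances that are the same in the genome and in the transcript.

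Levels are given as log2 of the normalized array signal, so that a difference of 1 is a 2-fold difference, and they are compared between arrays for 1 probe but never between probes. All 10 probes had a value on all 18 arrays and none was saturated. Per array, 78.9% to 89.3% of probes were positive and significant over background and 58.6% to 71.2% were well above it. Replicates were tighter in nuclei than in cytoplasm: the SD of the member probes had a median of 0.109 in nuclear groups and of 0.297 in cytoplasmic groups. The soleus and EDL labels held up against contractile genes. Of 10 slow contractile genes, 9 passed as higher in soleus than in EDL in each compartment (median difference 3.69 in nuclei and 3.91 in cytoplasm). Of 13 fast ones, 3 passed as lower in soleus nuclei and 6 in soleus cytoplasm (medians -1.08 and -1.32), where 0.579% and 0.570% of all probes were lower. Against soleus, 9 slow genes were lower in TA nuclei and 10 in TA cytoplasm, where 11.9% and 12.8% of all probes were lower. Of the fast genes, 1 was higher in TA nuclei than in soleus nuclei and 3 in cytoplasm. Against EDL, 5 slow and 4 fast genes were lower in TA nuclei (9.81% of all probes). In TA cytoplasm 4 of each were lower (7.33%), and 0 were higher in either compartment. In addition, all 4 nuclear RNA markers were higher in nuclei than in cytoplasm in each muscle. Arrays lay on 4 slides. The cytoplasm of EDL, of soleus and TA cytoplasm replicate 1 shared slide 1, the nuclei of EDL and soleus shared slide 2, TA cytoplasm replicate 3 lay on slide 3, and the TA nuclei with TA cytoplasm replicate 2 lay on slide 4. Soleus was therefore compared with EDL within a slide. Compartment and slide cannot be told apart in EDL or soleus.

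**Figure D1:**
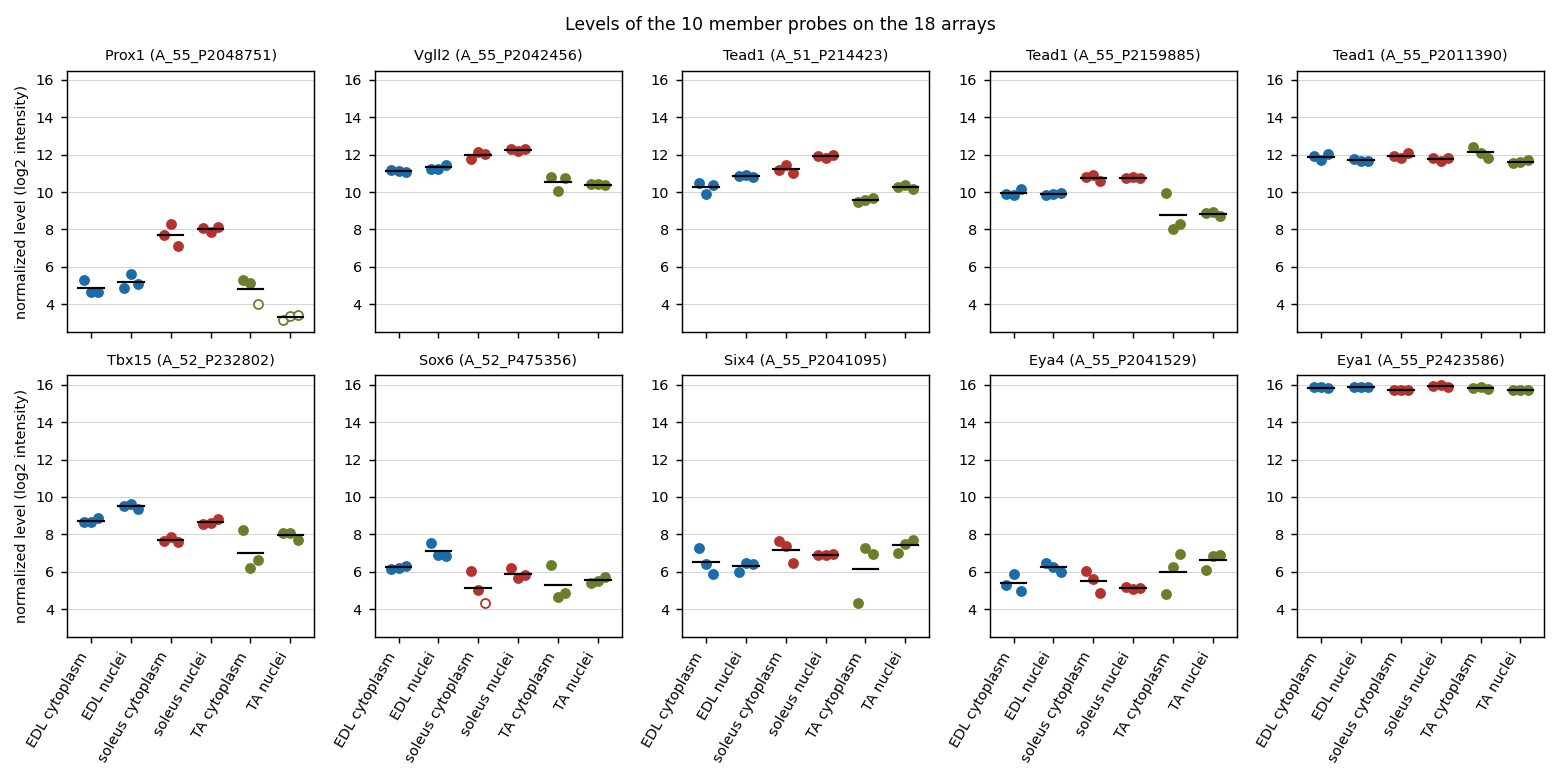
Level of each of the 10 probes (log2 normalized signal, vertical axes, the same in all panels) on every array of the 6 groups of muscle and compartment, coloured by muscle, with the group mean as a black line and open circles for spots not well above background. Prox1 lies between 7.10 and 8.28 on the 6 soleus arrays and at most at 5.6 on the other 12, while Eya1 stays between 15.72 and 15.96 on all 18.

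Prox1 was higher in soleus than in both fast muscles, in nuclei and in cytoplasm. In nuclei its levels were 8.09, 7.84 and 8.14 in soleus and 4.86, 5.6 and 5.11 in EDL. In cytoplasm they were 7.69, 8.28 and 7.10 in soleus and 5.32, 4.65 and 4.65 in EDL. No soleus array overlapped with an EDL array, and within each of the 3 pairs of arrays from the same mice the soleus was higher by 2.24 to 3.23 in nuclei and by 2.37 to 3.63 in cytoplasm. The fitted difference was 2.83 (SE 0.35) in nuclei, a 7.12-fold higher signal in soleus, with an adjusted p of 0.000337 by limma. It was 2.82 (SE 0.35) in cytoplasm, or 7.04-fold, with an adjusted p of 0.000478. With background taken by normexp, whose offset compresses low signals, these differences were 1.69 and 1.55, and both still passed the threshold. In a fit on the EDL and soleus cytoplasm arrays alone the adjusted p was 0.0863.

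In TA, Prox1 was low. Its cytoplasmic levels were 5.30, 5.11 and 3.99, of which the lowest was not well above background, and its nuclear levels were 3.18, 3.37 and 3.44, none of them well above background. The soleus signal was at least 13.1-fold that of TA in nuclei (adjusted p = 6.62e-07 by limma), a bound because the TA spots sit at background. In cytoplasm, where 2 of 3 TA arrays were well above background, TA was lower than soleus by 7.42-fold (log2 difference -2.89, adjusted p = 8.09e-05). With normexp these differences from soleus were -2.16 and -1.58 and both still passed. TA was also lower than EDL in nuclei, by at least 1.84-fold (adjusted p = 0.00339), a call lost with normexp (difference -0.48, adjusted p = 0.0566), whereas in cytoplasm the levels of these fast muscles overlapped and the difference was -0.07. No fit that left out 1 array lost any of these Prox1 calls.

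Prox1 also marks lymphatic endothelium, so 4 other genes of that cell type were read on the same arrays. Of Lyve1, Flt4, Pdpn and Ccl21a, only the chemokine Ccl21a passed the threshold as higher in soleus than in EDL, by 2.91 in nuclei and 2.79 in cytoplasm. The summed linear signal of the 4 genes was 555 to 619 in soleus nuclei and 345 to 351 in EDL nuclei, and in cytoplasm it was 339 to 910 in soleus and 317 to 464 in EDL. Their part in the Prox1 difference was not tested.

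Vgll2 was highest in soleus, intermediate in EDL and lowest in TA. Its nuclear levels were 12.29, 12.19 and 12.29 in soleus, 11.25, 11.24 and 11.47 in EDL, and 10.41, 10.41 and 10.35 in TA. Its cytoplasmic levels were 11.77, 12.16 and 12.06 in soleus, 11.19, 11.11 and 11.07 in EDL, and 10.78, 10.04 and 10.76 in TA. The groups did not overlap in either compartment. Soleus exceeded EDL by 0.94 in nuclei, a 1.91-fold difference (adjusted p = 0.0222 by limma), and by 0.87 in cytoplasm, a 1.83-fold difference (adjusted p = 0.038). With the shared mice as a block these values became 0.0542 and 0.0792. The nuclear call was also lost with 75th percentile scaling (adjusted p = 0.0681) and in each of the 6 fits without 1 of the EDL or soleus nuclei arrays (adjusted p = 0.0534 to 0.114). The cytoplasmic call was lost without scaling (adjusted p = 0.0563), in a fit on the EDL and soleus cytoplasm alone (adjusted p = 0.453) and in 14 of the 18 fits that left out 1 array (adjusted p = 0.0553 to 0.113), all but those without soleus cytoplasm replicate 1 or 1 of the TA cytoplasm arrays. TA was lower than soleus by 3.65-fold in nuclei (adjusted p = 2.44e-05) and by 2.77-fold in cytoplasm (adjusted p = 0.000176). TA minus EDL was -0.93 in nuclei (adjusted p = 0.00605) and -0.60 in cytoplasm (adjusted p = 0.0569), which missed the threshold. The cytoplasmic difference did pass with 75th percentile scaling (adjusted p = 0.0463), normexp (0.013), no spot filter (0.0485) or only spots well above background (0.0345). It passed too without soleus cytoplasm replicate 2 (0.0451) or TA cytoplasm replicate 1 (0.014). With slide as a random block neither difference of TA from EDL passed.

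The 3 Tead1 probes gave different patterns. The probe nearest the 3′ end, A_51_P214423, had nuclear levels of 11.94, 11.81 and 12.01 in soleus, 10.88, 10.89 and 10.82 in EDL, and 10.28, 10.38 and 10.16 in TA. Its cytoplasmic levels were 11.16, 11.47 and 10.997 in soleus, 10.48, 9.92 and 10.38 in EDL, and 9.50, 9.59 and 9.67 in TA. The order soleus, EDL, TA held in both compartments without overlap, as for Vgll2. Soleus was 2.08-fold above EDL in nuclei (difference 1.06, SE 0.18, adjusted p = 0.00491 by limma) and 1.93-fold above it in cytoplasm (difference 0.95, adjusted p = 0.0146). The cytoplasmic call was lost with the mice as a block (adjusted p = 0.0635) and without EDL cytoplasm replicate 2 (adjusted p = 0.0717). It was lost too without scaling and in a fit on the EDL and soleus cytoplasm alone. TA minus soleus was -1.64 in nuclei (adjusted p = 3.47e-05) and -1.63 in cytoplasm (adjusted p = 3.9e-05). TA minus EDL was -0.59 in nuclei (adjusted p = 0.0356) and -0.68 in cytoplasm (adjusted p = 0.0251). The nuclear call was lost with 75th percentile scaling, and the cytoplasmic call without scaling and in a fit on the EDL and TA cytoplasm alone. The replicate number as a block, set apart for TA and for EDL with soleus, ended both calls (adjusted p = 0.0706 and 0.0522). So did leaving out any 1 of the EDL or TA nuclei arrays or soleus nuclei replicate 1 for nuclei (adjusted p = 0.0514 to 0.121), and EDL cytoplasm replicate 1 or 3 or TA cytoplasm replicate 2 for cytoplasm (adjusted p = 0.0703 to 0.0964).

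The middle probe, A_55_P2159885, ranked the muscles alike. Its levels were 10.74, 10.83 and 10.74 in soleus nuclei, 9.82, 9.88 and 9.98 in EDL nuclei, and 8.88, 8.94 and 8.73 in TA nuclei. In cytoplasm they were 10.82, 10.91 and 10.60 in soleus, 9.91, 9.85 and 10.17 in EDL, and 9.96, 8.04 and 8.31 in TA. Soleus and EDL did not overlap, but their differences of 0.88 in nuclei and 0.80 in cytoplasm had adjusted p values of 0.356 and 0.299 under the common variance of this probe, which the spread of the TA cytoplasm arrays dominated (SD 1.04). TA minus soleus was -1.92 in nuclei (adjusted p = 0.00172) and -2.01 in cytoplasm (adjusted p = 0.00106). TA minus EDL was -1.04 in nuclei (SE 0.34, adjusted p = 0.0485), a call lost in 14 of the 18 fits without 1 array, among them all those without an EDL, soleus or TA nuclei array (adjusted p = 0.0536 to 0.135 over the 14). In cytoplasm it was -1.21 (adjusted p = 0.0334), lost without any 1 of the EDL arrays or without TA cytoplasm replicate 2 or 3 (adjusted p = 0.0633 to 0.187), and it was -0.01 within slide 1 (adjusted p = 0.977).

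The brightest Tead1 probe, A_55_P2011390, was nearly flat. Its nuclear levels were 11.83, 11.69 and 11.83 in soleus, 11.79, 11.65 and 11.69 in EDL, and 11.54, 11.60 and 11.74 in TA. In cytoplasm they were 11.92, 11.81 and 12.09 in soleus, 11.94, 11.73 and 12.03 in EDL, and 12.43, 12.09 and 11.84 in TA. Muscle differences of this probe ran from -0.16 to 0.22 and none passed the threshold. The difference between the probes of Tead1 was not tested, and Tead1 values are for that reason reported per probe.

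Tbx15, Sox6, Eya4 and Six4 had their highest nuclear levels in a fast muscle, Tbx15 and Sox6 in EDL and the others in TA. For Tbx15 the nuclear levels were 9.50, 9.60 and 9.36 in EDL, then 8.55, 8.61 and 8.82 in soleus, and then 8.08, 8.07 and 7.67 in TA. The cytoplasmic levels were 8.68, 8.66 and 8.84 in EDL, then 7.66, 7.86 and 7.58 in soleus, and then 8.21, 6.20 and 6.64 in TA. EDL stood above soleus in all 3 pairs of both compartments, with a mean of soleus minus EDL of -0.83 in nuclei and -1.03 in cytoplasm, but the adjusted p values of 0.438 and 0.193 by limma missed the threshold. TA was below EDL by 2.92-fold in nuclei (difference -1.54, SE 0.35, adjusted p = 0.00992) and by 3.27-fold in cytoplasm (adjusted p = 0.00931). The cytoplasmic difference rested on the 2 TA arrays outside slide 1: TA cytoplasm replicate 1, on the slide of the EDL arrays, was at -0.51 from the EDL mean (adjusted p = 0.233 within that slide), and the others were at -2.53 and -2.09. Without TA cytoplasm replicate 2 the adjusted p was 0.0543.

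Sox6, the repressor of slow-fiber genes, had nuclear levels of 7.53, 6.87 and 6.85 in EDL, then 6.19, 5.68 and 5.83 in soleus, and then 5.38, 5.52 and 5.73 in TA. Its cytoplasmic levels were 6.15, 6.20 and 6.32 in EDL, then 6.01, 5.03 and 4.33 in soleus, and then 6.33, 4.65 and 4.84 in TA. The soleus value of 4.33 was not well above background. EDL exceeded soleus in all 3 pairs of each compartment, with soleus minus EDL between -1.34 and -1.02 in nuclei, while the adjusted p was 0.269 in nuclei and 0.244 in cytoplasm. The nuclear difference between TA and EDL passed, with TA 2.91-fold lower (difference -1.54, SE 0.42, adjusted p = 0.0223), but not without EDL nuclei replicate 1 or any 1 of the TA nuclei arrays (adjusted p = 0.0536 to 0.0897).

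Eya4 followed another order. Its nuclear levels were 6.11, 6.86 and 6.87 in TA, 6.46, 6.23 and 6.00 in EDL, and 5.19, 5.1 and 5.11 in soleus. TA exceeded soleus in nuclei by 2.79-fold (difference 1.48, SE 0.44, adjusted p = 0.028 by limma), a call lost without any 1 of the soleus nuclei arrays and without TA nuclei replicate 2 or 3 (adjusted p = 0.0673 to 0.0962). EDL and TA nuclei overlapped. In cytoplasm the Eya4 levels of 5.27, 5.89 and 4.95 in EDL, then 6.05, 5.63 and 4.88 in soleus, and then 4.82, 6.27 and 6.93 in TA overlapped too.

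Six4 passed the threshold in none of the 11 comparisons at an adjusted p under 0.05. Its nuclear levels were 7.02, 7.50 and 7.71 in TA, 6.90, 6.87 and 6.94 in soleus, and 6.00, 6.48 and 6.39 in EDL, without overlap between muscles. In cytoplasm they were 4.30, 7.27 and 6.94 in TA, 7.61, 7.35 and 6.48 in soleus, and 7.24, 6.41 and 5.89 in EDL. The lowest of these, TA cytoplasm replicate 1, was the array on slide 1, and the SD of the TA cytoplasm was 1.63. TA minus soleus in cytoplasm was -0.98 (adjusted p = 0.214 by limma). With slide as a random block it was -1.96 and passed (adjusted p = 0.028). The nuclear difference of TA from EDL was 1.12 (adjusted p = 0.191). Eya1 passed in no comparison either, and its probe is the GT repeat shown above. With 75th percentile scaling, however, the Eya1 probe was lower in nuclei than in cytoplasm, at -0.50 over the 3 muscles (adjusted p = 0.000428) and was called in soleus and TA, while without scaling it was higher in soleus nuclei by 0.66 (adjusted p = 0.00247).

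**Figure D2:**
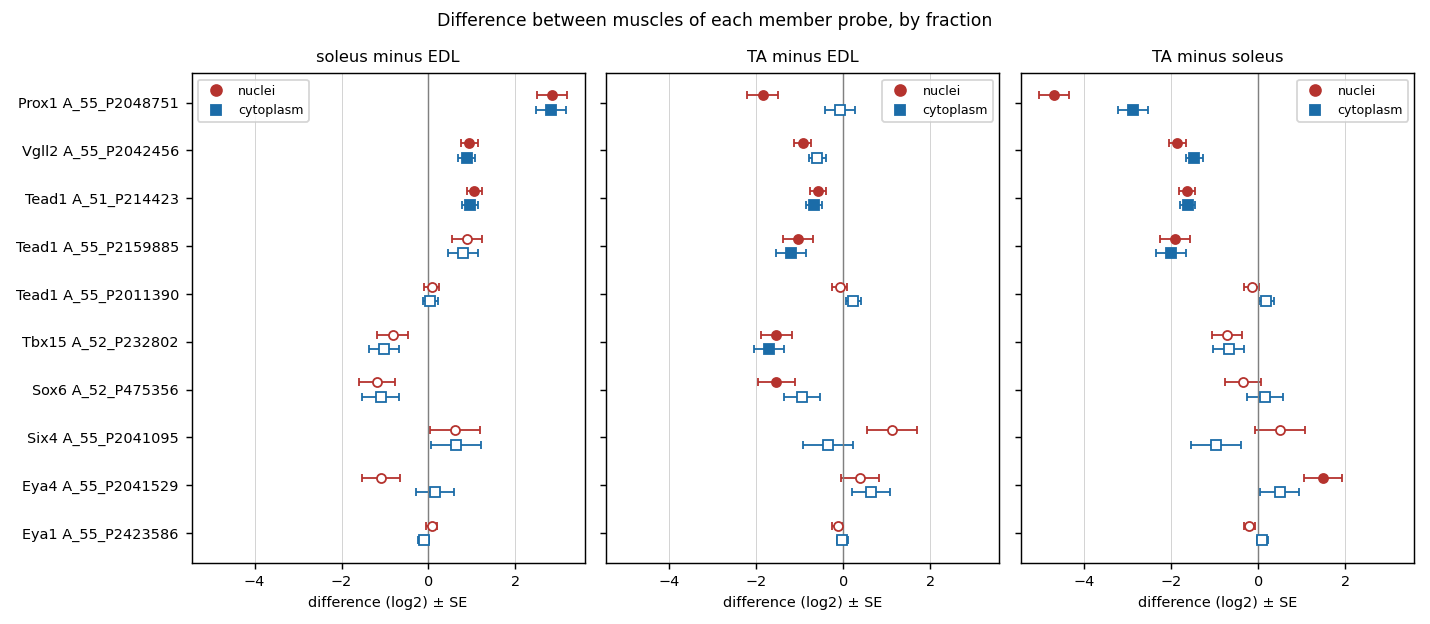
Differences between muscles (log2, horizontal axes, bars ± SE of the fit) for each of the 10 probes in nuclei (red circles) and cytoplasm (blue squares), filled where the adjusted p of limma was under 0.05. Prox1, Vgll2 and Tead1 probe A_51_P214423 are the filled probes above 0 for soleus minus EDL in both compartments.

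In all, 3 of the 10 probes were higher in soleus than in EDL in nuclei and the same 3 in cytoplasm, Prox1, Vgll2 and Tead1 A_51_P214423, and none was called lower. Over all probes tested, 0.978% were higher in soleus nuclei and 0.853% in soleus cytoplasm. The median difference of the 10 probes was 0.34 in nuclei and 0.39 in cytoplasm, against 0.02 and -0.08 over all probes. With the mice as a block 2 of the 10 were called in nuclei and 1, Prox1, in cytoplasm. In fits on the groups compared alone, the calls in either direction were 8 of 10 in nuclei and 0 of 10 in cytoplasm. Of these 8, Eya4, Sox6 and Tbx15 were lower in soleus nuclei, at -1.10, -1.18 and -0.83, and the others were higher. Without TA cytoplasm replicate 1, which raises the common variance, 5 were called in each compartment. Of these 5, Tbx15 was lower in soleus, at -0.83 in nuclei and -1.03 in cytoplasm, and the others were higher. The shares of all probes given above belong to the fit of all groups together. The counts under the other fits cannot be set against them or read as a result about the members.

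Against TA, most calls had TA lower. From EDL to TA, 6 of 10 probes fell in nuclei, where 9.81% of all probes fell: Prox1, Vgll2, Tbx15, Sox6 and the Tead1 probes A_51_P214423 and A_55_P2159885. In cytoplasm 3 fell, Tbx15 and the same 2 Tead1 probes, where 7.33% of all probes fell. From soleus to TA, 4 probes were lower in nuclei and the same 4 in cytoplasm, Prox1, Vgll2 and those Tead1 probes, where 11.9% and 12.8% of all probes were lower. Eya4 alone was higher in TA nuclei than in soleus nuclei, where 7.75% of all probes were higher. The comparisons share their arrays, so these counts do not stand for separate evidence. Markers of other cells differed between TA and EDL as well. In nuclei, 4 of 6 Schwann cell, 2 of 6 fibroblast and 2 of 6 skeletal muscle markers were lower in TA. Of 5 satellite cell markers 2 were higher and 1 was lower, Chodl, at a mean of 7.15 in TA and 8.50 in EDL. Of 4 smooth muscle and pericyte markers 2 were higher. The satellite cell cadherin Cdh15 was at a mean of 12.06 in TA and 6.47 in EDL and the smooth muscle actin Acta2 at 13.84 and 10.30. In cytoplasm 4 of 6 Schwann cell, 4 of 6 fibroblast and 2 of 7 endothelial markers were lower. Of 5 satellite cell markers 2 were higher and 1 lower there, and of 4 smooth muscle and pericyte markers 1 was higher and 1 lower. Their part in the member differences was not tested.

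The TA arrays lay mostly on other slides than EDL and soleus, and with the slide as a random block 0 of 10 probes were called between TA and EDL in either compartment by limma. Between TA and soleus, 3 were called in nuclei and 5 in cytoplasm under the same block. In cytoplasm these included Six4 (difference -1.96, adjusted p = 0.028), which the fit of all groups did not call (adjusted p = 0.214). Within slide 1, which held only TA cytoplasm replicate 1 of the TA arrays, 0 of 10 were called between TA and EDL cytoplasm and 5 between TA and soleus cytoplasm; the lone TA array was assumed to vary like the other groups. On that array the distance from the soleus cytoplasm mean was -2.39 for Prox1, -1.72 for Tead1 A_51_P214423 and -1.21 for Vgll2. For Six4 it was -2.85, whereas the other TA cytoplasm arrays were at 0.12 and -0.21. It was -0.81 for Tead1 A_55_P2159885 and -0.70 for Eya4. The distance was above 0 for Sox6 (1.21), Tbx15 (0.51), Tead1 A_55_P2011390 (0.49) and Eya1 (0.09). Left out, TA cytoplasm replicate 1 raised the calls between TA and EDL cytoplasm to 6, whereas leaving out replicate 2 lowered them to 0 and leaving out EDL cytoplasm replicate 1 or 3 to 1. In nuclei the calls fell to 3 without EDL nuclei replicate 1 or any 1 of the TA nuclei arrays.

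**Figure D3:**
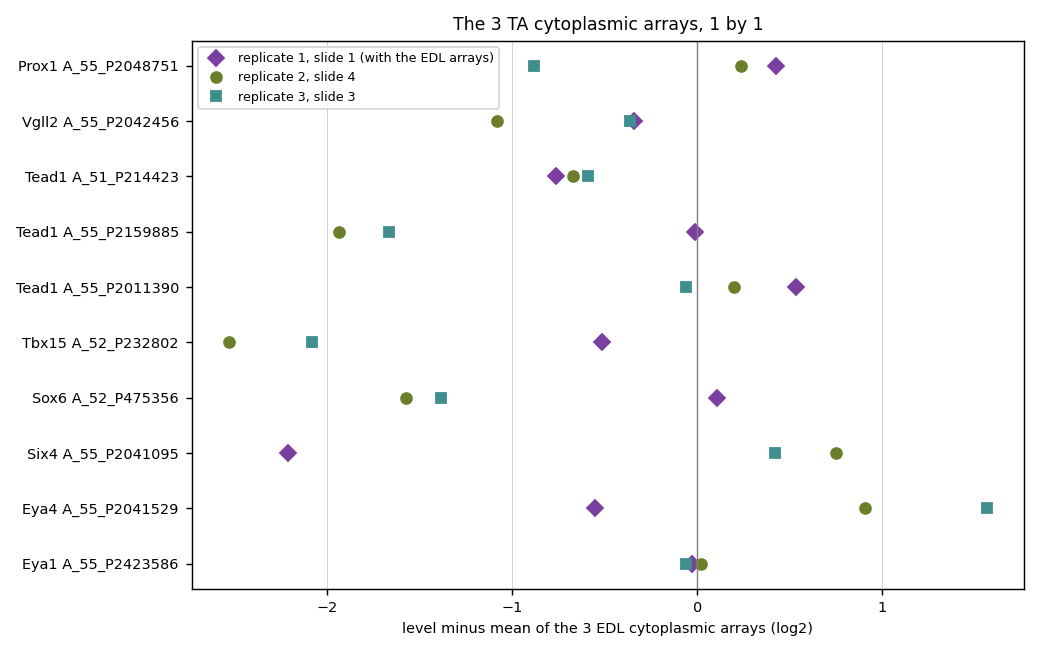
Each of the 3 TA cytoplasm arrays minus the mean of the EDL cytoplasm arrays (log2, horizontal axis) for the 10 probes, with the slide of the array given by its mark. On replicate 1, which shares a slide with EDL, Six4 is at -2.22 and Tbx15 at -0.51, while on the other arrays Six4 is at 0.75 and 0.42 and Tbx15 at -2.53 and -2.09.

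Between the compartments, Tbx15, Sox6 and the 3′ Tead1 probe were higher in nuclei. Averaged over the 3 muscles, Tbx15 was higher in nuclei by 0.88 (SE 0.20, adjusted p = 0.00128 by limma), Tead1 A_51_P214423 by 0.67 (SE 0.10, adjusted p = 3.7e-05) and Sox6 by 0.63 (SE 0.24, adjusted p = 0.0289). The Tead1 probe A_55_P2011390 was lower in nuclei, at -0.28 (SE 0.10, adjusted p = 0.0205), a direction that turned to 0.42 higher without scaling between arrays, where the median of all probes was 0.42 as well. Over all probes tested 31.2% were higher and 38.6% lower in nuclei, so 3 higher and 1 lower of 10 is no more than the array as a whole shows. The median of the 10 probes was 0.18, against -0.08 over all probes.

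For Tead1 A_51_P214423 every muscle gave a nuclear level above the cytoplasmic one: the differences were 0.71 in soleus (adjusted p = 0.00588), 0.69 in TA (adjusted p = 0.0046) and 0.60 in EDL (adjusted p = 0.0124). No array of nuclei overlapped with one of cytoplasm of the same muscle. In EDL the call was lost without EDL cytoplasm replicate 2 (adjusted p = 0.0707). The middle probe of the same gene differed by -0.08, -0.01 and 0.08 in EDL, soleus and TA, and none of these passed. In TA the middle probe did pass without TA cytoplasm replicate 1 (0.68, adjusted p = 0.00351) and within slide 4 (0.81, adjusted p = 0.00474). The brightest was lower in TA nuclei, at -0.50 (adjusted p = 0.0254). Without TA cytoplasm replicate 1, TA nuclei replicate 1 or TA nuclei replicate 2 the last of these calls was lost (adjusted p = 0.0646 to 0.0882), as it was under 7 of 13 other settings, among them 75th percentile scaling (-0.34), no scaling (-0.05), a fit on the TA arrays alone, the values within slide 4 and Significance Analysis of Microarrays (SAM).

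Tbx15 was higher in nuclei by 0.96 in soleus (adjusted p = 0.0418), 0.92 in TA (adjusted p = 0.0386) and 0.76 in EDL (adjusted p = 0.0904). The soleus call was lost in 11 of the 18 fits that left out 1 array, with differences of 0.88 to 1.01 in those fits (adjusted p = 0.0501 to 0.113). These were the fits without EDL cytoplasm replicate 1, soleus cytoplasm replicate 1 or 3, or any nuclear array other than TA replicate 3. In TA the difference fell to 0.52 without TA cytoplasm replicate 2 (adjusted p = 0.207), and the call was also lost without TA cytoplasm replicate 3 (adjusted p = 0.121) and without TA nuclei replicate 1 or 2 (adjusted p = 0.101 and 0.0987). It was lost too with normexp (0.56, adjusted p = 0.0852), in a fit on the TA arrays alone (adjusted p = 0.169) and with SAM. Within slide 4, which held the TA nuclei and TA cytoplasm replicate 2, it was 1.74 (adjusted p = 0.000111), with the lone cytoplasm array assumed to vary like the other groups. The differences of Sox6 were 0.86 in EDL, 0.77 in soleus and 0.27 in TA, and its difference passed the threshold only as the average of the muscles, which 6 of the 18 fits without 1 array lost (adjusted p = 0.0513 to 0.0638). These were the fits without EDL nuclei replicate 1, soleus cytoplasm replicate 3, soleus nuclei replicate 1, TA cytoplasm replicate 2 or 3, or TA nuclei replicate 3. The Sox6 call was lost as well with 75th percentile scaling (0.37, adjusted p = 0.17) and with slide as a random block (1.11, adjusted p = 0.0822).

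Prox1 went the other way in TA. Its nuclear signal there was at least 1.41-fold below the cytoplasmic one (adjusted p = 0.00242), a call lost with normexp (difference -0.35, adjusted p = 0.0907), while its differences of 0.32 in EDL and 0.33 in soleus did not pass. Whether the compartment difference depended on the muscle was tested by an interaction term: 0 of the 10 probes passed in limma, 1 of them, Prox1, had an unadjusted p under 0.05 (adjusted p = 0.0858), and 1.57% of all probes passed. With each array scaled to its 75th percentile the adjusted p of Prox1 was 0.0488, and without scaling it was 0.00292. Vgll2 differed between compartments by -0.14 in TA, 0.26 in soleus and 0.20 in EDL, Six4 by 1.24 in TA (SE 0.58, adjusted p = 0.084) and Eya4 by 0.86 in EDL (adjusted p = 0.118), and none of these passed. With the replicates as a block Eya4 did pass in EDL (adjusted p = 0.0315) and Six4 in TA (adjusted p = 0.0334).

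**Figure D4:**
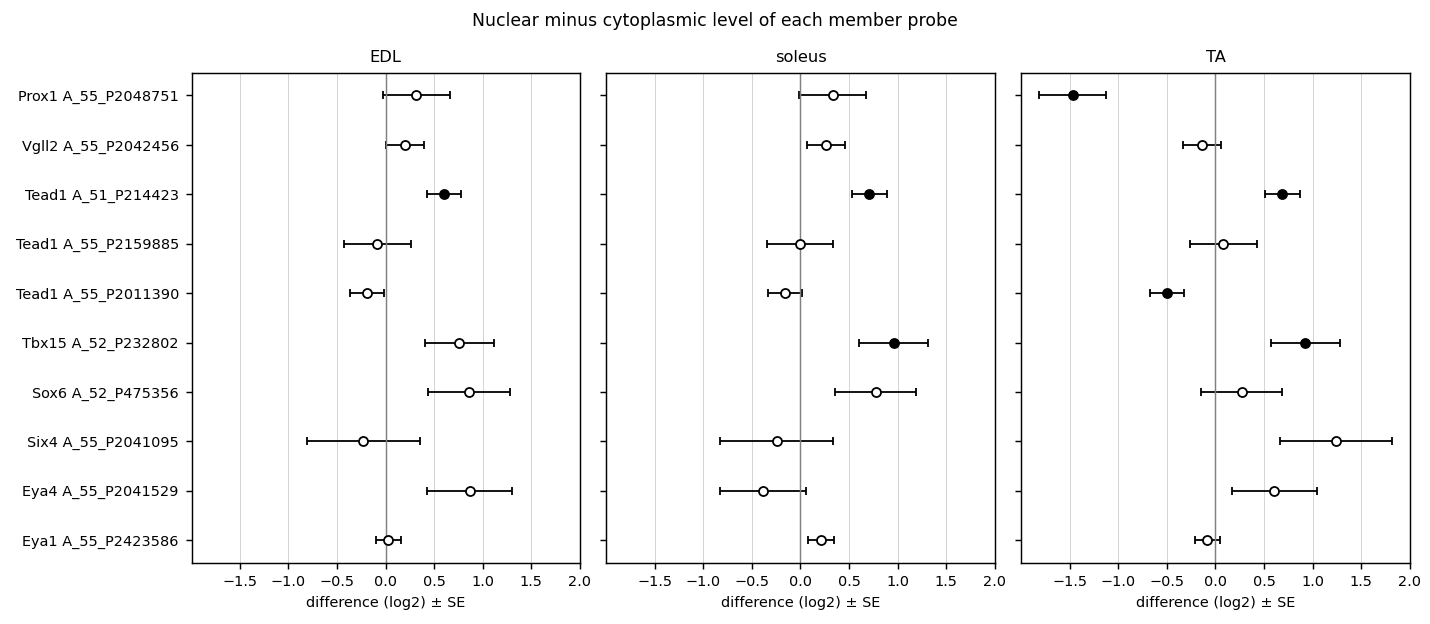
Nuclei minus cytoplasm (log2, horizontal axes, bars ± SE of the fit) for each of the 10 probes, with 1 panel for each muscle, filled where the adjusted p of limma was under 0.05. Tead1 A_51_P214423 is filled in all panels, at 0.71 in soleus, 0.69 in TA and 0.60 in EDL.

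By muscle, 1 probe was higher in EDL nuclei (20.0% of all probes), 2 in soleus nuclei (18.7%), and in TA 2 were higher and 2 lower (19.2% and 33.5%). In EDL 4 were called without TA cytoplasm replicate 1, 2 without TA cytoplasm replicate 2, and 0 without EDL cytoplasm replicate 2. Markers of other cell types and of muscle itself moved with the compartment. All 7 endothelial and all 6 Schwann cell markers were higher in nuclei over the 3 muscles, as were 5 of 6 fibroblast markers and 3 of 4 satellite cell markers tested. Of 4 macrophage markers 3 were lower, and of 4 smooth muscle and pericyte markers 2 were higher and 1 lower. Of the muscle genes, 5 of 6 skeletal muscle markers, 11 of 13 fast and 5 of 10 slow contractile genes were higher and 0 lower. Over all probes 31.2% were higher and 38.6% lower. The part of other cell types in the member differences was not tested.

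The nuclear replicates of a muscle were close to each other, and with each set of 3 averaged to 1 sample, 5 of the 35 called differences of the 10 probes passed in limma. These were the difference of Tead1 A_51_P214423 between compartments over the 3 muscles (adjusted p = 0.0364) and, between TA and soleus cytoplasm, Prox1 (adjusted p = 0.0124), Vgll2 (adjusted p = 0.0294) and the Tead1 probes A_51_P214423 (adjusted p = 0.0186) and A_55_P2159885 (adjusted p = 0.0399).

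The relatives of these factors were taken from fixed lists that do not hold every family member, and were compared between soleus and EDL first. Over all probes, 0.978% were higher and 0.579% lower in soleus nuclei, and 0.853% and 0.570% in soleus cytoplasm. With so few genes per list, few or no calls are what the array as a whole shows. Of the relatives of Six4, Eya1 and Eya4, with the Dach genes that work beside them, 8 were tested in each compartment and 0 passed by limma, with 1 in nuclei and 3 in cytoplasm at an unadjusted p under 0.05. Of 7 Tead, Vgll and Yap relatives 0 passed, with 3 in each compartment at an unadjusted p under 0.05. Among the Sox, Prox and T-box relatives only the T-box gene Tbx1 passed, lower in soleus, with soleus minus EDL at -1.68 in nuclei (adjusted p = 0.00167) and -2.32 in cytoplasm (adjusted p = 0.000127), 1 gene of 10 and of 8 tested.

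Some relatives differed between TA and EDL, among them 3 of the 7 Tead, Vgll and Yap relatives in each compartment, 2 higher and 1 lower in TA nuclei and 1 higher and 2 lower in TA cytoplasm. Over all probes, 7.59% were higher in TA nuclei and 5.12% in TA cytoplasm, and 9.81% and 7.33% lower. Eya2, a coactivator like Eya1 and Eya4, was lower in TA, with differences of -1.41 in nuclei and -1.86 in cytoplasm. Tead2 was higher in TA by 2.32 in nuclei and 2.04 in cytoplasm. Vgll4, a cofactor that opposes Yap at Tead proteins, was lower, with differences of -1.14 in nuclei and -1.83 in cytoplasm. As for the members, these differences cannot be told apart from the slide for most TA arrays.

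Between compartments, the relatives of Six4, Eya1 and Eya4 gave 4 genes higher and 1 lower in nuclei of 7 tested over the 3 muscles: Eya3 by 1.73, Dach1 by 1.57, Six2 by 1.24 and Eya2 by 0.86, with Six3 at -0.78. The Tead, Vgll and Yap relatives gave 3 higher, Vgll4 by 1.55, Yap1 by 1.32 and Tead3 by 0.92, and 1 lower, Tead4 at -0.87, of 7. The Sox, Prox and T-box relatives gave 2 higher, Tbx2 by 1.89 and Tbx3 by 0.58, and 2 lower, Tbx22 at -0.77 and Tbx20 at -0.51, of 7. These counts stand against 31.2% of all probes higher and 38.6% lower.

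The genes whose levels most resembled each member over the 18 arrays were sought among 17412 probes of other named genes with a value on every array, and the likeness is given as a description. For Prox1 they were the slow tropomyosin gene Tpm3 (Pearson's r = 0.962) and the myosin heavy chain gene Myh6 (0.961). For Vgll2 they were the small heat shock gene Hspb6 (0.982) and Tpm3 (0.971). For Tbx15 they were the muscle phosphoglycerate mutase gene Pgam2 (0.974) and Ndufb4 (0.973), which codes for a subunit of respiratory complex I. The closest to Sox6 were Lrrc30 (0.929) and Sar1b (0.913), and to Six4 Mex3c (0.902) and Arl15 (0.888). Eya4 came closest to Coro7 (0.863) and Hnrnpc (0.852), the brightest Tead1 probe to Tas1r3 (0.933) and Tbc1d17 (0.928), and the Eya1 repeat probe to Dennd4a (0.883) and Sh3yl1 (0.855). All these values rest on the same 18 arrays and on the differences in level between 6 groups.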

How the data were processed

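RNA of myofiber nuclei and cytoplasm was measured on 18 1-colour Agilent arrays. The deposited scanner files hold intensity values per spot, which the authors extracted with Agilent Feature Extraction 10.7.3.1 (version per the labels). The background-subtracted processed signal was used here. Following the study's methods, spots that were not positive and significant over background were set to missing, log2 signals were quantile normalized, and spots of 1 probe name were averaged. Outlier spots were set to missing too, a step added here (16.1% of values missing in all). The 6 group means of all 18 arrays were fitted in limma 3.58.1 (R 4.3.3) with moderated tests and Benjamini-Hochberg adjustment over all probes with a value on at least 2 of 3 arrays of each group involved, at a threshold of 0.05, for 11 comparisons. The prior had 3.27 degrees of freedom and the residuals 12. Where no array of a group had Prox1 well above background, a fold is a bound, from each array's lowest signal well above background or the spot's own, whichever was higher. The number of arrays limits the precision. Quantile normalization gives every array the same distribution, so a change in total RNA between compartments is not seen.

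Every probe of a member gene was described, and the 2 probes of other genes most like the brightest probe of each member were named. Other genes were read by their brightest probe. The members, the family lists and the marker lists were chosen with earlier results of these data known. EDL and soleus arrays of 1 number share mice per the labels; the correlations of their deviations from group means over 35528 probes were -0.111 to 0.101 for the 18 pairs of arrays from the same mice and -0.178 to 0.131 for the 27 pairs of equal number that hold a TA array, which share 1 mouse or none, and the blocked fit is given where it changed a call. Probe positions are the array's own, on mm9, and all 10 gene names matched RefSeq symbols. The deposited table of processed intensity values holds 3687 features with values, none of them a member, so it was not used for the members. Alternatives were 75th percentile scaling, no scaling, normexp background (offset 50), other spot filters, the replicate block, averaged nuclear arrays, slide as a random block, only the groups compared, Significance Analysis of Microarrays (SAM, the study's test) with a false positive share under 1%, and leaving out each array. The values within slide 1 for TA cytoplasm were chosen after seeing the data. Scripts were tested on simulated data. Figures were drawn with matplotlib 3.10.9. 1 gene of the family lists is not reported here.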

Additional observations from a re-analysis of the deposited data

How the results depend on the processing

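The 35 differences called among the member probes kept their call in 31 cases with 75th percentile scaling, 29 without scaling, 32 with normexp, 34 without the spot filter, 31 of 32 tested with only spots well above background, 35 with values on all arrays, 30 with the replicate block, 5 with averaged nuclear arrays, 19 with slide as a random block, 20 of 31 with only the groups compared and 5 of 7 with SAM. The replicate block gave 2 member probes called between the EDL compartments in place of 1, and 1 between soleus and EDL cytoplasm in place of 3; it changed no other count of members by over 1.5 times. Averaged nuclear arrays left 1 of 4 called over the 3 muscles, 0 between the compartments of EDL, soleus or TA, 0 between soleus and EDL in nuclei or cytoplasm, and 0 between TA and EDL in nuclei or cytoplasm and between TA and soleus in nuclei. Slide as a random block left 2 over the 3 muscles, 0 between the compartments in EDL and in soleus, 0 between TA and EDL in nuclei or cytoplasm, and 3 between TA and soleus nuclei. Without scaling, 8 were called between compartments over the 3 muscles, 5 in EDL, 8 in soleus, 4 for the interaction, 1 between soleus and EDL cytoplasm and 8 between TA and soleus nuclei. Under this setting the median of all probes between compartments was 0.42 over the 3 muscles, 0.35 in EDL and 0.96 in soleus. The Tead1 probe A_55_P2011390 reversed to 0.42. With 75th percentile scaling the interaction had 1 call. With normexp the interaction had 1 call and the EDL compartments 2. Fits on only the groups compared called 4 in EDL and 2 in TA between compartments, 8 between soleus and EDL nuclei, 0 between soleus and EDL cytoplasm, 0 between TA and EDL cytoplasm and 1 between TA and soleus cytoplasm. SAM called 4 in EDL and 2 in TA. Within slide 1, 0 were called between TA and EDL cytoplasm. Leaving out 1 array gave 3 to 4 calls between compartments over the 3 muscles, 0 to 4 in EDL, 1 to 2 in soleus, 2 to 5 in TA and 0 to 1 for the interaction. Between soleus and EDL it gave 2 to 5 in nuclei and 1 to 5 in cytoplasm, between TA and EDL 3 to 7 and 0 to 6, and between TA and soleus 4 to 6 in each compartment. The cause of these changes was not tested. Here and above, counts under these alternatives are given without the share of all probes, so they cannot be set against the array as a whole.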
